A study of Rattus norvegicus with 15 samples.

Results

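The retinoid receptors and their relatives in the nuclear receptor superfamily were examined in H9c2 cells, a rat myoblast line derived from embryonic heart, cultured with or without all-trans retinoic acid (RA). The group was set by gene symbol and comprised 10 of the 11574 genes in the deposited table: the retinoic acid receptors Rara and Rarg, the retinoid X receptors Rxra and Rxrb, the COUP-TF family members Nr2f1, Nr2f2 and Nr2f6, and Ppard, Thra and Nr1h2, whose products pair with retinoid X receptors. All 10 symbols were present, each on 1 row.

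RNA-seq had been performed on 15 cultures, 3 in each of 5 groups. T0 was collected 24 h after seeding, T7-RA and T14-RA after 7 and 14 days without RA, and T7+RA and T14+RA after the same days with 1 µM RA added daily. Serum was lowered from 10% to 1% after attachment, so T0 differed from every later group in serum as well as in day. RA was prepared in DMSO, and the sources used here do not state whether the -RA cultures received the solvent. The cells were labelled wild type throughout. All cultures came from the same established line, so the 3 samples of a group are not separate animals, and p-values measure only the spread between cultures, which may be technical. The titles name H9c2 for every culture, whereas the cell line field carries a different running name in each culture outside T0.

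Retinoic acid receptors bind all-trans RA and act as heterodimers with retinoid X receptors on paired copies of a hexamer in DNA. Without ligand the dimers recruit corepressors, and ligand binding exchanges these for coactivators. Retinoid X receptors are also the partners of thyroid hormone receptors, peroxisome proliferator-activated receptors (PPARs) and liver X receptors (LXRs), while the COUP-TF proteins are orphan receptors that bind similar repeats and can oppose retinoid signalling. In muscle the group is best known for the thyroid hormone receptor encoded by Thra, which controls contractile and calcium-handling genes, and for PPAR delta, a regulator of fatty acid oxidation.

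Libraries held 508397 to 1030820 counts over all genes, and a gene had a median of 22 counts in a library. The 10 receptor genes together held 316 to 698 counts per library, and 9 of them had at least 10 counts in every library. The exception was Nr2f1, with a lowest count of 4 in T0 replicate 2, for which the exact Poisson 95% interval is 1.09 to 10.2 counts. A count of 36 has an interval of 25.2 to 49.8, so single libraries gave imprecise levels; such intervals cover counting error only. Marker lists were set against the label of heart myocardium: 7 of 8 skeletal muscle markers were in the table, against 3 of 10 cardiac markers (Gata4, Actc1 and Tnnt2), 4 of 6 fibroblast markers, 1 of 5 endothelial markers and 0 of 5 macrophage markers. Nkx2-5, Myh6, Nppa and Tnni3, which define cardiomyocytes, were not among the genes analysed. The summed skeletal markers went from 239 to 298 CPM (counts scaled to a common library size) at T0 to 10830 to 11383 CPM at T14-RA. The summed cardiac markers rose as well, from 67.5 to 83.8 CPM at T0 to 931 to 1070 CPM at T14-RA. The endothelial marker Tek lay between 0 and 6.29 CPM in all libraries. In bulk RNA, fewer cells of a type and less RNA per cell cannot be told apart.

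Levels are given as CPM with library sizes scaled by the trimmed mean of M-values (TMM), and changes as log2 fold changes from edgeR's quasi-likelihood test. An additive model gave terms for T7, T14 and RA over all 15 libraries, and a model with 5 group means gave RA at each day and the differences between groups. A gene was called at an adjusted p (Benjamini-Hochberg over all 11574 genes) under 0.001, the threshold used in the study, and 0.05 is given as a looser level.

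RA was accompanied by opposite changes in 2 of the 10 genes: Nr2f1 rose by 1.19 ± 0.19 (log2, SE, n = 15 libraries) and Thra fell by 1.02 ± 0.14. Across all genes 6.39% were called for the RA term, 3.33% as higher and 3.07% as lower. With time, Thra rose by T14, the only receptor gene called for that term (1 of 10, against 17.3% of all genes, 8.47% as higher), and 0 of 10 were called for T7, against 8.73% of all genes. For T7, 5 receptor genes had an unadjusted p under 0.05 in edgeR, and limma-voom and DESeq2 also called 0. The median log2 change of the 10 genes was -0.10 for RA, -0.04 for T7 and 0.13 for T14, beside -0.01, 0.02 and 0.05 over all genes. At an adjusted p under 0.05 the counts were 3 for RA, 3 for T7 and 4 for T14, where 14.7%, 23.1% and 35.4% of all genes passed.

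**Figure D1:**
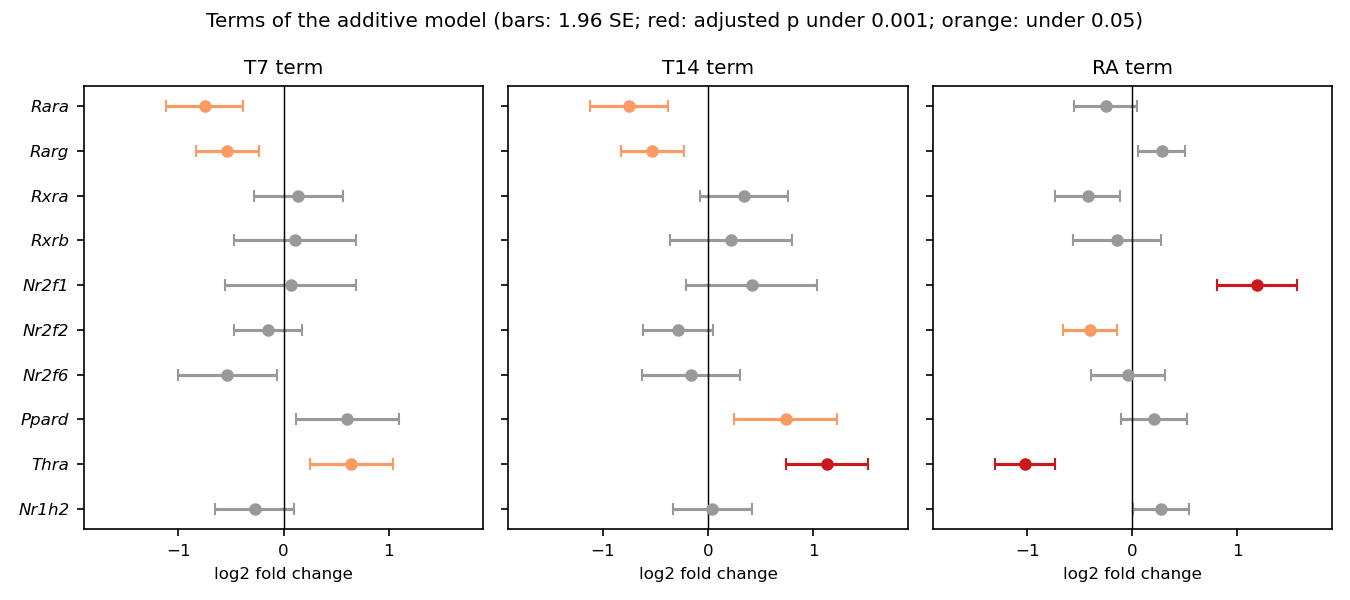
Log2 fold change (horizontal axis) of each receptor gene for the T7, T14 and RA terms of the additive model in edgeR, with bars of 1.96 SE; red marks an adjusted p under 0.001, orange under 0.05 and grey the rest. Nr2f1 and Thra are red in the RA panel on opposite sides of 0, and Thra is also red in the T14 panel.

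Within single days the calls were fewer. At day 7, Thra alone was called for RA (1 of 10, 3.17% of all genes), and at day 14, Nr2f1 alone (1 of 10, 4.81% of all genes). In CPM, the +RA and -RA cultures did not overlap for 3 receptor genes at day 7 (Nr2f1 higher, Nr2f2 and Thra lower) and for 4 at day 14 (Nr2f1 and Nr1h2 higher, Rara and Thra lower), where 24.4% and 27.2% of all genes did not overlap. The change with RA at day 14 minus that at day 7 passed an adjusted p under 0.05 in edgeR for 0 of the 10 genes and for 0.743% of all genes. For that difference 2 receptor genes, Nr2f1 and Nr2f2, had an unadjusted p under 0.05, and limma-voom and DESeq2 also called 0. A call at a single day therefore does not show a difference between the days. At an adjusted p under 0.05, RA passed for 2 receptor genes at day 7 (7.41% of all genes) and for 2 at day 14 (11.2%).

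Between groups, T7-RA against T0 called 0 of the 10 genes (8.78% of all genes; 4 at 0.05, against 22.6%), and T14-RA against T0 called Thra alone (15.7%; 4 at 0.05, against 32.6%). T14-RA against T7-RA called 0 (2.95%; 0 at 0.05, against 7.79%), and T14+RA against T7+RA called 0 (4.67%; 2 at 0.05, against 11.4%). The numbers with an unadjusted p under 0.05 in edgeR were 5 for T7-RA against T0, 1 for T14-RA against T7-RA and 3 for T14+RA against T7+RA. Limma-voom and DESeq2 called 0 in these 3 comparisons. T7+RA against T0 called Rara and Nr2f2 (10.4% of all genes), and T14+RA against T0 called Rara, Nr2f1 and Ppard (19.7%). Limma on quantile-normalised values called none of these 3 for T14+RA against T0, with adjusted p of 0.00116, 0.00166 and 0.00468.

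Among the receptors for RA itself, Rara (retinoic acid receptor alpha, ENSRNOG00000009972, 10q31) was highest at T0. Its level was 77.3, 122 and 96.4 CPM in the T0 cultures, 53.7, 61.8 and 50.8 CPM at T7-RA, and 55.3, 65.5 and 61.0 CPM at T14-RA. With RA it was 62.7, 44.3 and 44.6 CPM at T7 and 52.1, 37.7 and 45.3 CPM at T14. Every T0 culture lay above all 12 later cultures. The additive terms were -0.75 ± 0.19 (SE) for T7 and -0.75 ± 0.19 for T14, with adjusted p of 0.00186 and 0.00111 in edgeR, past 0.05 but not 0.001; without T0 replicate 1 they were -0.91 for both, with adjusted p of 0.000765 and 0.000414. The RA term was -0.26 ± 0.15 (adjusted p = 0.319). Against T0, Rara fell by 0.94 in T7+RA (adjusted p = 0.000282) and by 1.08 in T14+RA (adjusted p = 1.66e-05), while T7-RA stood at -0.81 (adjusted p = 0.00139) and T14-RA at -0.69 (adjusted p = 0.00486). These comparisons share the T0 cultures. The T7+RA call was lost without some libraries and in 2 of 9 other settings: its adjusted p was 0.00794 without T0 replicate 2, 0.0056 without T7+RA replicate 2, 0.00365 without T7+RA replicate 3, 0.0023 in DESeq2 and 0.00671 in limma on quantile-normalised values. In order of level, T0 was followed by T14-RA, T7-RA, T7+RA and T14+RA, and the neighbours below T0 were not separated beyond their spread (adjusted p of 0.861, 0.851 and 0.791).

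Rarg (retinoic acid receptor gamma, ENSRNOG00000012499, 7q36) was the more abundant of the pair, with a mean of 32.2 CPM per kb over all libraries against 20.4 for Rara. It measured 141, 135 and 166 CPM at T0, 125, 96.8 and 87.1 at T7-RA and 88.9, 93.9 and 113 at T14-RA. With RA the values were 137, 113 and 106 CPM at T7 and 127, 141 and 107 CPM at T14, so +RA and -RA cultures overlapped at both days. The terms for T7 and T14 were both -0.53, with adjusted p of 0.0064 and 0.00474 in edgeR, and that for RA was 0.28 ± 0.12 (adjusted p = 0.105). T14-RA differed from T0 by -0.58 (adjusted p = 0.00408) and T14+RA by -0.22 (adjusted p = 0.289), again with shared T0 cultures. Scaled by length, Rara made up 39.9% to 52.2% of the Rara and Rarg total at T0, 34.2% to 43.6% at T7-RA, 39.4% to 45.8% at T14-RA, 32.2% to 35.7% at T7+RA and 24.4% to 33.9% at T14+RA. The shares with and without RA overlapped at day 7 and not at day 14; no test was made of them. Rarb, the remaining retinoic acid receptor, and Rxrg were not among the genes in the deposited table. The study likewise reported that it did not observe expression of the beta receptor.

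The retinoid X receptors, the common partners of many of these proteins, were not called in any term. Rxra (ENSRNOG00000009446, 3p12) ranged from 39.8 to 59.3 CPM at T0, 47.7 to 57.8 at T7-RA, 54.2 to 72.1 at T14-RA, 37.1 to 49.7 at T7+RA and 33.0 to 56.9 at T14+RA. The RA term was -0.42 ± 0.16 (adjusted p = 0.059 in edgeR), just outside 0.05, and the groups overlapped at both days. Rxrb (ENSRNOG00000000464, 20p12) was lower in level, at 12.4 CPM per kb against 25.5 for Rxra, with a range of 18.5 to 51.4 CPM and overlapping groups at each day. Its RA term was -0.15, with an interval of -0.57 to 0.27 (1.96 SE), which leaves room for a fall or a rise of moderate size at counts of 11 to 40 per library. In the current RefSeq annotation Rxrb overlaps Slc39a7 on the opposite strand, and Slc39a7 had an RA term of 0.0027 (adjusted p = 0.995).

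Of the 3 COUP-TF genes, Nr2f1 alone was called for the RA term. Nr2f1 (COUP-TFI, ENSRNOG00000014795, 2q11), known as a gene that RA induces in several cell types, had 24.8, 7.50 and 31.4 CPM at T0, 29.8, 26.9 and 23.2 at T7-RA and 21.6, 21.3 and 27.1 at T14-RA. With RA it reached 44.2, 53.7 and 36.0 CPM at T7 and 67.5, 81.7 and 65.3 CPM at T14. All 6 +RA cultures lay above all 9 others, and the T14+RA cultures above the T7+RA cultures. The adjusted p of the RA term in edgeR was 2.85e-06, a 2.28-fold higher level, and the term stayed between 1.09 and 1.30 and past 0.001 when each of the 15 libraries was left out in turn. Limma on quantile-normalised values gave 1.16 with an adjusted p of 0.0111, and a filter of 10 counts in every library removed the gene. By day the log2 change was 0.75 ± 0.27 at day 7 (adjusted p = 0.0801) and 1.61 ± 0.26 at day 14 (adjusted p = 2.42e-06). The difference between the days was 0.87 ± 0.38 (adjusted p = 0.51), and T14+RA stood at 0.66 against T7+RA (adjusted p = 0.0484). The latter was under 0.05 in 4 of 15 fits that left out a library, with adjusted p up to 0.214, and in 4 of 8 other settings, with adjusted p up to 0.319. In order of level, T14+RA was followed by T7+RA, T7-RA, T14-RA and T0; the lower 3 were not separated beyond their spread (adjusted p of 0.815 between T7-RA and T14-RA and 0.829 between T14-RA and T0).

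The promoter of Nr2f1 is shown because the gene was called for RA, next to those of Thra, the other gene called. The sequences are RefSeq windows of 250 bases before the annotated start, in assembly GRCr8, written 5′ to 3′ on the gene's strand; this assembly is not the Rnor_6.0 build of the deposited counts. Capitals mark the hexamer AGGTCA, its variant GGGTCA, the related AGTTCA or the related GGTTCA on either strand, the cores of retinoid receptor elements. Nr2f1 lies on the minus strand (chr2:9785925-9786174), and Thra on the plus strand with 2 annotated starts (chr10:84197891-84198140 and chr10:84209708-84209957).
Nr2f1: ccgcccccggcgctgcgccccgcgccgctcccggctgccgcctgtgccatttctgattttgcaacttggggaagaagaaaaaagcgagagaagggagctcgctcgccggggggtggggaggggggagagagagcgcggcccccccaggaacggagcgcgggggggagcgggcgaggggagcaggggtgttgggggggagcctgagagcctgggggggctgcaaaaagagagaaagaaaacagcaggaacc
Thra, upstream start: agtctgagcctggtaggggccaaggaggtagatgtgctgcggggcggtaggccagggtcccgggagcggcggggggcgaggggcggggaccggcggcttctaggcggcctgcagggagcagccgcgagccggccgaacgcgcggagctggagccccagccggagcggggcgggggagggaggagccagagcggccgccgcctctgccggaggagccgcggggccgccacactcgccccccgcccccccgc
Thra, downstream start: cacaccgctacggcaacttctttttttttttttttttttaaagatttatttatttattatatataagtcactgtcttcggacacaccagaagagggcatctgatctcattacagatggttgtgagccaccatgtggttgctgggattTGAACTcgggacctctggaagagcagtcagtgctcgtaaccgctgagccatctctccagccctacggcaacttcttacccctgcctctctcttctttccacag
The Nr2f1 window and the upstream Thra window held no such hexamer, and the downstream Thra window held AGTTCA on its minus strand, 103 bases before the start. Promoters were found for 8 of the 10 genes, in 10 windows, and 3 of these held a hexamer: besides Thra, Rara with GGGTCA and Rarg with AGGTCA, 131 and 225 bases before their starts. Of all 33469 windows, 39.1% held at least 1 of the 4 hexamers. Direct repeats of 2 hexamers with spacers of 1, 2, 4 or 5 bases occurred in none of the 10 windows and in 0.194%, 0.137%, 0.0717% and 0.326% of all windows. These counts describe letters in short windows and say nothing about binding there or elsewhere.

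Nr2f2 (COUP-TFII, ENSRNOG00000010308, 1q31), a regulator of mesenchymal and vascular development, had the highest level of the group at 80.9 CPM per kb. It measured 146, 148 and 184 CPM at T0, 160, 138 and 170 at T7-RA, and 78.4, 102 and 106 at T7+RA, so that each T7+RA culture lay below each T7-RA culture. At day 14 it measured 154, 108 and 77.9 CPM without RA and 100, 113 and 120 CPM with RA, and the wide T14-RA values enclosed all T14+RA values. RA at day 7 gave -0.71 ± 0.17 (adjusted p = 0.00189 in edgeR), past 0.05 but not 0.001. The adjusted p was 0.000603 without T0 replicate 2 and 0.00086 without T0 replicate 3, and the cause was not tested. It stayed under 0.05 in 15 of 15 fits that left out a library, with values up to 0.0498. In other settings it did so in 8 of 9, with values up to 0.0882. At day 14 the value was -0.09 ± 0.17 (adjusted p = 0.848), and the difference between days, 0.62 ± 0.24, had an adjusted p of 0.363. Without T14-RA replicate 1, the highest of its group, the day 14 value was 0.24. The RA term of the additive model was -0.40 ± 0.13 (adjusted p = 0.029); it stayed under 0.05 in 8 of 15 fits that left out a library, with adjusted p up to 0.133, and in 5 of 9 other settings, with adjusted p up to 0.258. T7+RA was below T0 by 0.73 (log2; adjusted p = 0.000779), a call that was kept at 0.001 in 7 of 15 fits that left out a library, with adjusted p up to 0.0178, and in 3 of 9 other settings.

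Nr2f6 (ENSRNOG00000016892, 16p14), the third of the family, ranged from 25.5 to 59.3 CPM with overlapping groups at each day. Its RA term was -0.04 with an interval of -0.40 to 0.31. Scaled by length, Nr2f1 supplied 2.32% to 8.12% of the summed level of the 3 COUP-TF genes at T0, 6.90% to 9.49% at T7-RA and 6.46% to 11.5% at T14-RA. With RA its share was 14.8% to 20.3% at T7 and 19.6% to 24.5% at T14, above every culture without RA. Nr2f2 remained the largest contributor in all libraries, with 68.8% to 75.7% at T0, 71.9% to 80.2% at T7-RA, 52.6% to 73.1% at T14-RA, 57.3% to 69.2% at T7+RA and 53.6% to 58.0% at T14+RA. The shares restate the levels and were not tested.

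**Figure D2:**
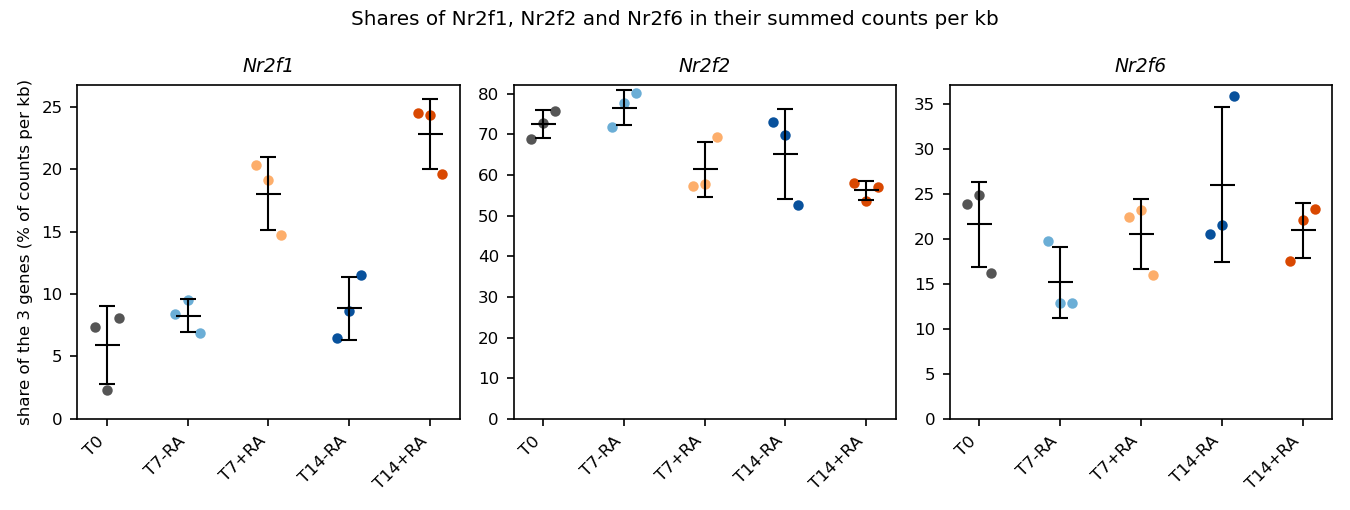
Share of Nr2f1, Nr2f2 and Nr2f6 in the sum of their counts per kb (vertical axes, %, each from 0) by group; points are the 3 cultures, and bars the mean and SD. The Nr2f1 share lies between 14.8% and 24.5% in the +RA cultures and between 2.32% and 11.5% in the rest.

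Thra (thyroid hormone receptor alpha, ENSRNOG00000009066, 10q31) rose with time and was lower with RA at both days. It measured 56.6, 46.9 and 46.1 CPM at T0, 70.4, 98.1 and 88.6 at T7-RA and 97.3, 119 and 96.5 at T14-RA. The RA-treated cultures had 28.5, 38.9 and 32.6 CPM at T7 and 59.8, 69.1 and 50.8 CPM at T14. Neither day showed overlap between +RA and -RA, and the T7+RA cultures were below even the T0 cultures. The T14 term was 1.13 ± 0.20 (adjusted p = 4.47e-06) and the RA term had an adjusted p of 8.85e-08 in edgeR, a 2.03-fold lower level; without any single library they lay at 1.09 to 1.27 and at -1.09 to -0.95, each past 0.001. The T7 term was 0.65 ± 0.20 (adjusted p = 0.0142). By day, RA gave -1.34 ± 0.21 at day 7 (adjusted p = 1.83e-06) and -0.78 ± 0.19 at day 14 (adjusted p = 0.00158), the latter reaching 0.000734 without T0 replicate 2. The difference of 0.56 ± 0.29 between the days had an adjusted p of 0.611.

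In order of level, Thra was highest in T14-RA, then T7-RA, T14+RA, T0 and T7+RA. No neighbouring pair was separated at 0.05: the adjusted p in edgeR was 0.425 for T14-RA and T7-RA, 0.0517 for T14+RA and T7-RA, 0.385 for T14+RA and T0, and 0.0656 for T7+RA and T0. T14+RA against T7-RA passed 0.05 in 5 of 15 fits that left out a library and in 4 of 9 other settings. T7+RA against T0 passed it in 0 of 15 such fits and in 2 of 9 other settings. Neither of these 2 pairs overlapped in CPM, where 32.9% and 35.3% of all genes did not overlap. T14-RA exceeded T0 by 1.03 (adjusted p = 2.78e-05), and T14+RA exceeded T7+RA by 0.84 (adjusted p = 0.00661).

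In the RefSeq annotation the Thra locus overlaps Nr1d1, which encodes the circadian repressor REV-ERB alpha on the opposite strand, and the locus also overlaps Med24. The library kit keeps strand, but the strand setting of the counting is not given in the sources used here, so reads of overlapping genes cannot be told apart. The same limit holds for Rara, Rarg, Nr2f2 and Ppard, which overlap long noncoding RNA genes in that annotation. Nr1d1 had means of 20.7 ± 8.36 CPM (SD, n = 3) at T0, 49.1 ± 11.7 at T7-RA, 71.2 ± 7.44 at T14-RA, 33.4 ± 5.65 at T7+RA and 46.5 ± 7.02 at T14+RA. It rose for T14 by 1.75 ± 0.26 (adjusted p = 1.53e-07), and its RA term was -0.58 ± 0.16 (adjusted p = 0.0083), the same order of groups as Thra except that T0 and T7+RA changed places. Med24 had terms of -0.16 for T14 and -0.03 for RA (adjusted p of 0.621 and 0.957). The summed skeletal muscle markers were also highest in T14-RA and lower with RA at both days, but not in the same order of groups as Thra: their median was 279 CPM at T0, 2861 at T7-RA, 10990 at T14-RA, 1649 at T7+RA and 5240 at T14+RA. The markers in T7+RA were above T0 and those in T14+RA above T7-RA, where Thra was lower in level. Of the 7 markers, 3 fell with RA at 0.001 (Acta1, Myh3 and Tnnt3) while 0 rose, where 3.07% of all genes fell and 3.33% rose. Des and Ckm had RA terms of 0.01 and 0.0009. Myod1 went the other way at day 7, with an RA value of 0.77 (adjusted p = 0.00106 in edgeR), and had -0.28 at day 14. Its T14 term was -0.88 (adjusted p = 0.00689), while 6 markers rose for T14 at 0.001, where 8.47% of all genes rose. The sum does not show these values of Myod1. The summed cardiac markers were lower with RA as well, with medians of 406 CPM at T7-RA, 330 at T7+RA, 1057 at T14-RA and 642 at T14+RA, and Actc1 fell with RA by 2.73. Of 4 fibroblast markers, Postn fell by 5.46 and Thy1 by 0.49, and Dcn rose by 1.08; the sum of the list is nearly all Col1a1 and does not show these changes. The part of these markers in the values of Thra and of the other receptor genes was not tested.

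**Figure D3:**
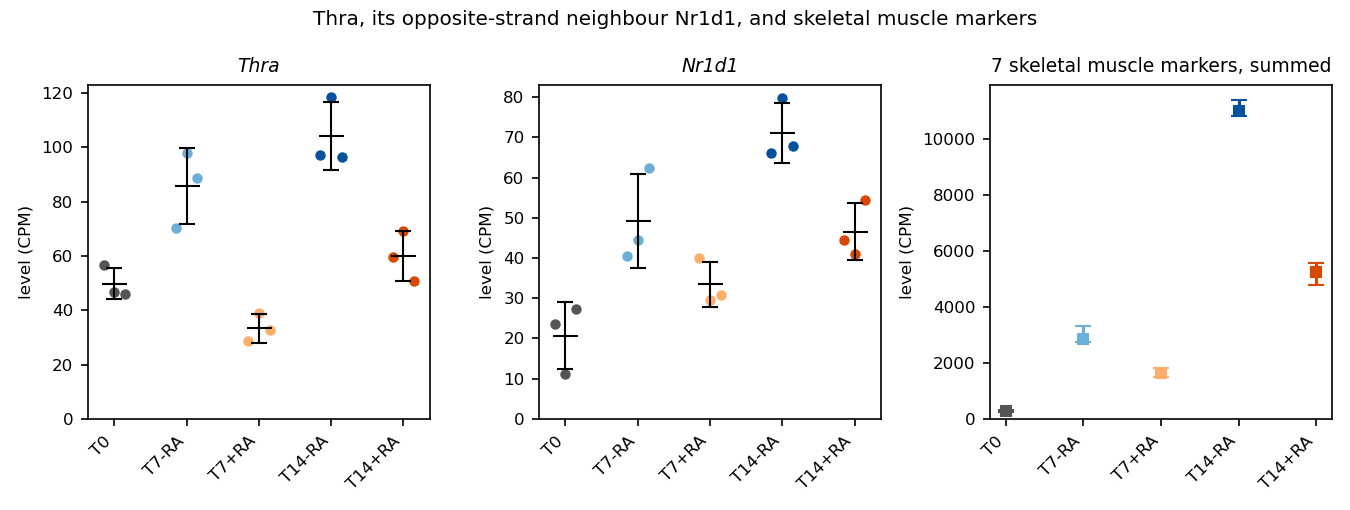
Level in CPM (vertical axes from 0) of Thra and of its opposite-strand neighbour Nr1d1 by group, with points for the 3 cultures and bars for the mean and SD, beside the summed CPM of 7 skeletal muscle markers, shown as median and range. Each is highest in T14-RA, and the +RA group lies below the -RA group of the same day in all 3 panels.

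Ppard (ENSRNOG00000000503, 20p12) had 22.1, 31.9 and 33.5 CPM at T0, 38.2, 52.4 and 47.9 at T7-RA and 46.8, 35.4 and 50.8 at T14-RA. With RA it had 41.3, 55.0 and 44.6 CPM at T7 and 61.7, 58.1 and 50.8 CPM at T14. All 12 later cultures were above the T0 cultures, while +RA and -RA overlapped at both days. The T7 and T14 terms were 0.61 (adjusted p = 0.0681 in edgeR) and 0.74 ± 0.25 (adjusted p = 0.0157), and the RA term 0.21 ± 0.16 (adjusted p = 0.477). T14+RA was above T0 by 1.02 (adjusted p = 0.000741), which was 0.0162 without T0 replicate 1, 0.00949 without T14+RA replicate 1 and 0.00198 without T14+RA replicate 2, and past 0.001 in 5 of 9 other settings. Per length it was the lowest of the 10 genes, at 8.06 CPM per kb.

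Nr1h2 (LXR beta, an oxysterol receptor, ENSRNOG00000019812, 1q22) had a T14 term of 0.04, with an interval of -0.33 to 0.42, and a T7 term of -0.28. It measured 60.1, 65.5 and 64.3 CPM at T14-RA and 75.2, 91.2 and 78.0 CPM at T14+RA, groups that did not overlap. The RA value at day 14 was 0.36 ± 0.19 (adjusted p = 0.269 in edgeR), and the RA term was 0.27 ± 0.14 (adjusted p = 0.211).

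**Figure D4:**
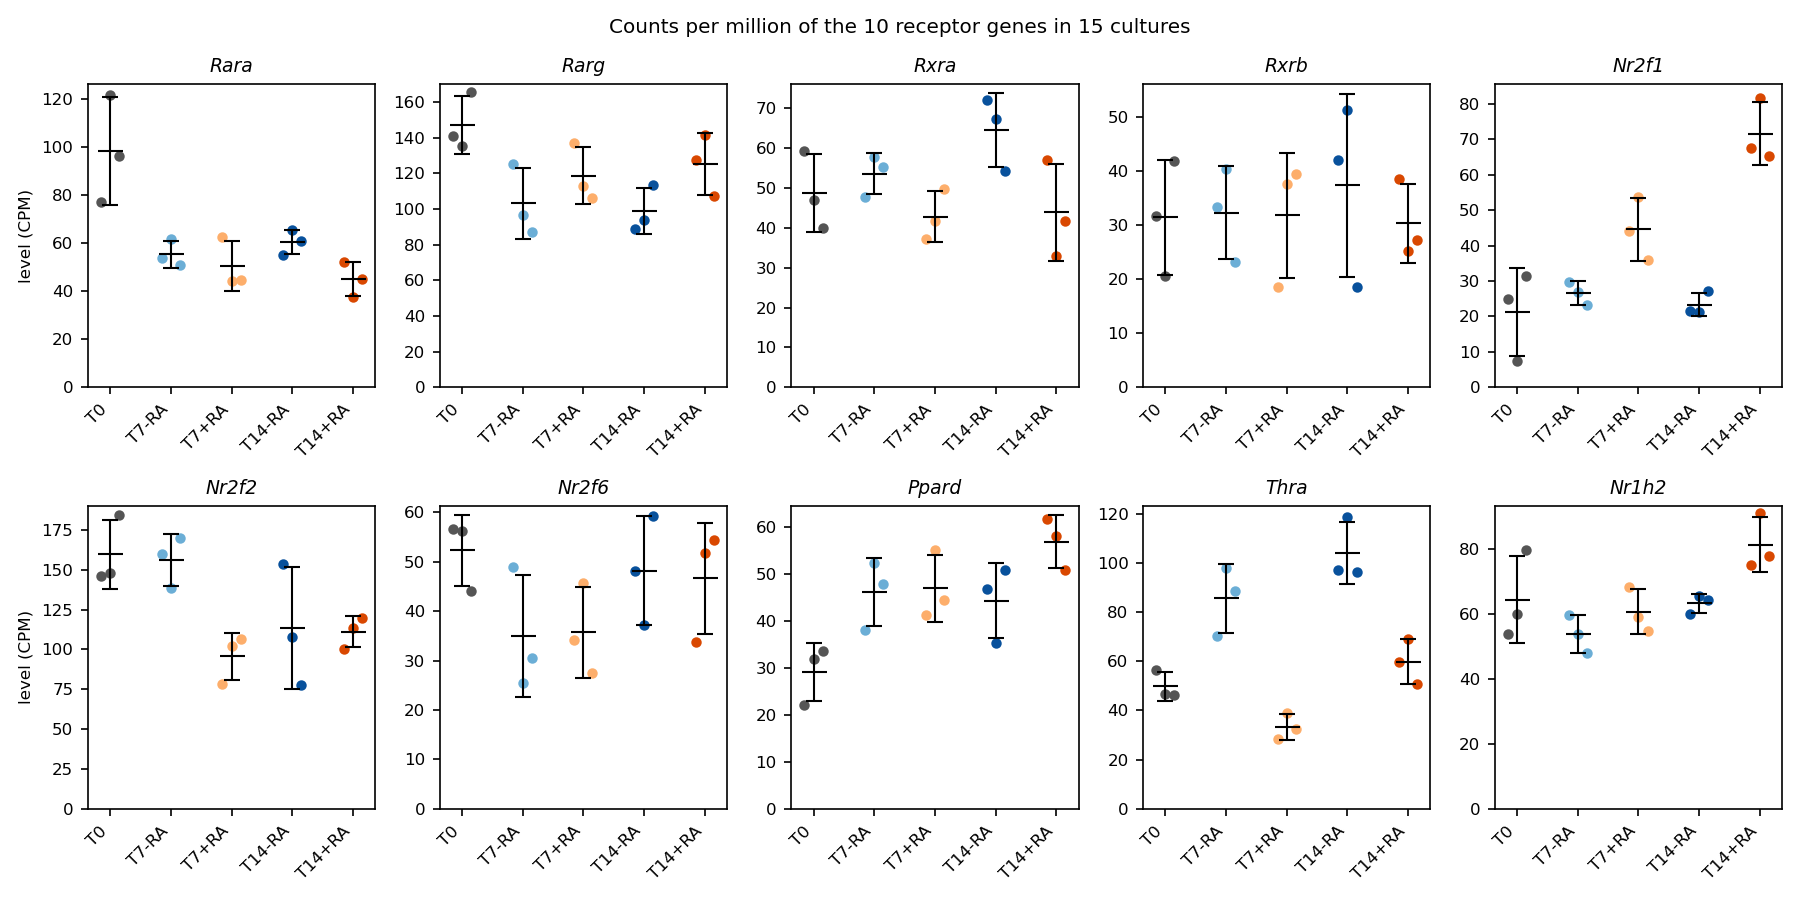
Level in CPM (vertical axes from 0, a scale for each gene) of the 10 receptor genes in the 5 groups; points are the 3 cultures of a group, and bars the mean and SD. Nr2f1 is highest in the +RA groups, Thra is lower with RA at both days, and Rara is highest at T0.

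Counts of the cofactors that these receptors recruit stand beside 17.3% of all genes called for T14 and 6.39% for RA. Of 8 corepressor genes, all in the table, 1 rose for T14 (Tbl1xr1, a subunit of the NCoR complex, by 1.63, adjusted p = 8.89e-09 in edgeR) and 0 were called for RA. Ncor1 was higher with RA by 0.29 (adjusted p = 0.0406) and Tbl1xr1 lower by a log2 value of -0.40 (adjusted p = 0.0292), 2 of 8 under 0.05 against 14.7% of all genes. The same 2 made up the genes with an unadjusted p under 0.05. Ncor1 had a T14 term of -0.42 (adjusted p = 0.013 in edgeR). Of 8 coactivator genes measured out of 9 listed, Ncoa1 rose for T14 by 0.70 (adjusted p = 7.45e-05) and Ncoa3 rose for RA by 0.86 ± 0.18 (adjusted p = 0.000309). Ncoa3 was at 33.4, 21.5 and 37.8 CPM in T7-RA and 37.1, 64.4 and 68.6 CPM in T7+RA, which overlapped. At day 14 it was at 34.8, 21.3 and 32.2 CPM without RA and 52.1, 39.3 and 76.1 CPM with RA, which did not overlap. The T7 and T14 terms of Ncoa3 were -0.81 (adjusted p = 0.0121 in edgeR) and -0.84 (adjusted p = 0.00579). Its +RA means, 56.7 CPM at T7 and 55.8 CPM at T14, lay near the T0 mean of 53.7 CPM. Of 38 other nuclear receptors listed, 14 were in the table; Nr1d1 was the single gene called for T14, where 7 passed 0.05 (6 higher and 1 lower, against 35.4% of all genes) and 10 had an unadjusted p under 0.05. For RA, 0 were called in edgeR, with 4 at an unadjusted p under 0.05 and 3 at an adjusted p under 0.05 (Nr1d1 and Nr3c2 lower, Esrra higher).

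Of 15 genes for retinoid handling and RA response, 5 were in the table. Dhrs3, a retinaldehyde reductase, Rai14 and Tgm2 rose with RA. Cyp26b1, which degrades RA, was also called as higher; it had at most 4 counts in any culture without RA and 125 to 672 counts with RA, so it passed the filter on summed counts only through the +RA cultures, and its call is no support for the list. Dhrs3 was between 1.88 and 15.6 CPM without RA and between 289 and 432 CPM with RA, and Rai14, which also fell for T14 by 0.69, rose with RA by 1.29 ± 0.09. Of 12 PPAR delta targets, all in the table, Plin2, a lipid droplet protein, rose with RA by 0.58 and Ucp2 by 0.63, and 0 fell in edgeR, where 6.39% of all genes were called. Pdk4, which restrains glucose oxidation, was also called as higher; it had 21, 15 and 11 counts in T14+RA and 0 in the 12 other cultures, so it passed the filter on summed counts only through T14+RA, and its call is no support for the list. At 0.05, 7 were higher, Pdk4 and Angptl4 among them, and 0 lower, against 14.7% of all genes. Angptl4 had at most 1 count in any culture without RA and 1 to 9 counts with RA. It too passed the filter on summed counts only through the +RA cultures, so it is no support for the list either. For T14, where 17.3% of all genes were called, Hadha, an enzyme of fatty acid oxidation, rose by 0.84 and Plin2 by 0.87. Ucp2 had a T7 term of -0.80 (adjusted p = 0.000228 in edgeR), with means of 101 CPM at T0, 59.9 at T7-RA and 88.0 at T7+RA. Ppard itself was not called for RA.

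Of 12 LXR targets, 8 were in the table, and 5 rose for T14 while 0 fell, against 17.3% of all genes called: Abca1, a cholesterol exporter, by 4.21, Scd by 3.62, Mylip by 2.53, Lpl by 2.17 and Lpcat3 by 1.03. For RA, where 6.39% of all genes were called, Abca1 rose by 1.70 ± 0.11 and Lpcat3 by 0.48 ± 0.10, and Lpl, which hydrolyses triglycerides, fell by 0.96 ± 0.17. At 0.05, 2 were higher and 3 lower for RA, against 14.7% of all genes. Besides Lpl, the lower ones were Fasn at -0.33 (adjusted p = 0.00164 in edgeR) and Mylip at -0.73 (adjusted p = 0.0438). The RA term of Scd, a fatty acid desaturase, was 0.32 (adjusted p = 0.488 in edgeR), but its RA value was -0.46 ± 0.11 at day 7 (adjusted p = 0.0019) and it rose by 1.03 ± 0.10 at day 14 (adjusted p = 1.79e-12); the test of the difference between the days had an adjusted p of 5.11e-11. Abca1 had 5.57 ± 1.35 CPM (SD, n = 3) at T0, 106 ± 17.8 at T14-RA and 363 ± 46.9 at T14+RA. Of 12 thyroid hormone receptor targets, 4 were in the table; Atp2a2, the calcium pump of the sarcoplasmic reticulum, rose for T14 by 0.73 (adjusted p = 9.45e-09 in edgeR), and 0 were called for RA at 0.001 (6.39% of all genes), with 1 at 0.05 (14.7%) and 2 at an unadjusted p under 0.05. By day, 0 of the 4 passed 0.05 for RA at day 7 and 3 were higher at 0.05 at day 14, against 11.2% of all genes: Slc2a4, a glucose transporter, by 0.90, Me1 by 0.46 and Atp2a2 by 0.29. For Slc2a4 the days differed by 1.53 (adjusted p = 0.0391 in edgeR).

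Likeness of pattern was measured by Pearson's r of log2 CPM over the 15 libraries, among 5931 genes with at least 10 counts in each; the libraries share the 5 groups, so r describes mainly the group means. The genes closest to Nr2f1 were Fam107b (r = 0.92), Mrc2 (r = 0.91) and Map2k1 (r = 0.91), and those closest to Thra were Ssc5d (r = 0.92), Scara3 (r = 0.91) and Gstm7 (r = 0.89). By Spearman's rho the closest were Arntl for Nr2f1 (0.89) and Txnip for Thra (0.95).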

How the data were processed

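The authors sequenced stranded mRNA libraries of 15 cultures, aligned the reads with HISAT2 to Rnor_6.0 and counted them with featureCounts on Galaxy; versions and the strand setting are not given in the sources used here. The deposited values are raw counts per gene, without normalisation, and the authors had kept genes whose summed count exceeded 20; genes below this were not analysed here. Total counts per library were 508397 to 1030820. The deposited gene length, whose derivation is not stated, was used only for levels per kb.

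Counts were tested with edgeR 4.0.16 in R 4.3.3 (quasi-likelihood, robust, TMM), with the additive model T7 + T14 + RA and with 5 group means; SE is the log2 fold change over the square root of F. The study used limma; edgeR was used because the values are counts. Intervals are 1.96 SE. Alternatives were other scalings and filters, limma 3.58.1, DESeq2 1.42.0, a replicate block and leaving out each library. Scripts were tested on simulated counts. Replicates were compared by chi-square: chi-square per gene was 1.07 to 2.77 (sampling noise alone gives about 1), highest among T0 cultures, and none was merged.

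The receptor genes and the lists were chosen with earlier results of these data known. Named genes were all receptor genes; of other lists, those called for RA or T14, at most 4 per list and direction by size, and Rarb, Rxrg and Nr1d1; and, for called receptor genes, the 3 highest r. Values for Med24, Slc39a7, Nr3c2, Esrra, Ncor1, Angptl4, Fasn, Slc2a4, Me1, Arntl, Txnip and the cell markers were added after their values were seen.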

Additional observations from a re-analysis of the deposited data

How the results depend on the processing

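Over the 15 libraries left out in turn and the other settings, most of the receptor genes' fold changes that were recomputed kept their direction and their side of the threshold: 1746 did, 31 fell short of a threshold they had passed, 12 passed one they had missed, and 25 changed sign, none of them called. The threshold here was 0.001, or 0.05 for the difference between the days. Other values that crossed only 0.05 are not counted as moved. The counts of called receptor genes changed as follows. At an adjusted p under 0.05 they were 3 for T7, 4 for T14, 2 for RA at day 7, 2 for RA at day 14, 4 for T7-RA against T0, 4 for T14-RA against T0 and 2 for T14+RA against T7+RA. At 0.001, leaving out single libraries gave 0 to 1 for T7, 1 to 2 for T14, 1 to 2 for RA at day 7, 1 to 2 for RA at day 14 and 0 to 1 for T7-RA against T0. Limma on quantile-normalised values called 1 for RA (Thra), 0 for RA at day 14 and 0 for T14-RA against T0, where Thra had an adjusted p of 0.00106. Requiring 10 counts in every library left 1 for RA, because Nr2f1 was removed. Filtering by group gave 2 for T14 (Rara added), and library size alone gave 2 for RA at day 7 (Nr2f2 added) and 1 for T7-RA against T0 (Thra, adjusted p = 0.000821); it shifted the median of all genes to 0.13 for T7 and 0.15 for T14. For the other moved counts the cause was not tested.

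With the replicate number as a block, 2 were called for RA at day 14 (Thra added) and 1 for T7-RA against T0 (Rara). The numbers do not pair the cultures: deviations of same-numbered libraries correlated at 0.02 on average (-0.04 to 0.10), and 6 of 15 libraries lay closest to their own number.

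The sign changes were in values near 0. Without single libraries, Rxrb ranged from -0.0888 to 0.326 for T7 and from -0.204 to 0.239 for RA at day 7, and Nr2f1 from -0.299 to 0.36 for T7 and from -0.236 to 0.421 for T14-RA against T0. Nr2f2 ranged from -0.281 to 0.238 for RA at day 14. Nr2f6 ranged from -0.138 to 0.0822 for RA, from -0.191 to 0.375 for RA at day 7 and from -0.241 to 0.136 for RA at day 14. Ppard ranged from -0.0994 to 0.144 for RA at day 7, Nr1h2 from -0.0766 to 0.214 for T14 and Rara from -0.294 to 0.0483 for T14+RA against T7+RA. Limma-trend and quantile normalisation gave 0.0214 and 0.0174 for Nr2f2 for RA at day 14, and 0.00132 and 0.0132 for Nr2f6 for RA.

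The median count of a receptor gene in a library was 20 to 79, and T0 cultures varied most among themselves.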
